A study of Mus musculus with 2 samples.

Results

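RNA Pol II ChIA-PET contacts were examined that joined peaks on the same chromosome and had no promoter at either end. An anchor, that is a peak at an end of a contact, was taken as a promoter anchor if it lay within 2.5 kb of a transcription start site of a protein-coding gene of GENCODE vM1 (mm9), and a contact was kept if neither anchor did. This left 1608 of 17367 intrachromosomal pairs of peaks, and 172595 pairs were listed in all. Of these, 461 pairs with 4839 paired-end tags (PETs) came from Ronin KO cells and 1147 pairs with 8981 PETs from control cells. Each PET is a read pair whose ends map to both peaks and counts as 1 contact. Both groups were mouse embryonic stem cells (ESCs) with a CreERT2 recombinase and Ronin (Thap11) flox/flox alleles, derived from blastocysts and grown with LIF on gelatine. Ronin KO cells had received tamoxifen for 4 days, which activates the recombinase, and control cells, which carry the same alleles, ethanol for 4 days. The files hold 1 set of contacts per condition, merged from replicates, which leaves no measure of the spread between replicates, and every test below compares those libraries, not the conditions. The contacts carry no expression values, so neither loss of Ronin nor the cell type could be checked in them. All intervals are 95% intervals and cover counting error only. For a share of 0, the limit given is 3 counts of the total.

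RNA Pol II gathers at promoters, but it also travels through gene bodies, pauses beyond gene ends and loads at enhancers and at genes for non-coding RNAs. Contacts between peaks away from promoters can therefore join enhancers, parts of a transcribed gene, or repeated units of the genome. The antibody used, 8WG16, was raised against the C-terminal repeat of the largest subunit of RNA Pol II. Ronin is a zinc-finger DNA-binding protein that binds mostly near the start sites of genes for basic metabolism in ESCs.

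The pairs that held most PETs joined near-identical copies of a sequence. The 3 pairs with the most PETs joined 3 intergenic anchors to each other, in a region of 0.323 Mb on chromosome 8. A stretch of 180 bases from each anchor is shown 5′ to 3′ (mm9), with the 7 positions at which the copies differ in capitals.
Copy 1, chr8:19892918-19893097, plus strand: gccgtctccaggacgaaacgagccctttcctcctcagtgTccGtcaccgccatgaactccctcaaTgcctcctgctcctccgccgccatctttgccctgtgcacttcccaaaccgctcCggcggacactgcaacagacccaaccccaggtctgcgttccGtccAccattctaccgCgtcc
Copy 2, chr8:19784655-19784834, minus strand: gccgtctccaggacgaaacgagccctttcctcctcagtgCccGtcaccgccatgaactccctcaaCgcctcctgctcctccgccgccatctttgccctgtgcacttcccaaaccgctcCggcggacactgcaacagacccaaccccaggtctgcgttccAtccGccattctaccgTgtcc
Copy 3, chr8:20020186-20020365, plus strand: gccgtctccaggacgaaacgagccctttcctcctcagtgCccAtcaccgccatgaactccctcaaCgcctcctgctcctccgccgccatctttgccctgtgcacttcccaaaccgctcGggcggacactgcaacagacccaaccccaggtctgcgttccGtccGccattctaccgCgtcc
Copy 2 and copy 3 each differed from copy 1 at 5 positions. The pair with the next most PETs joined anchors on chromosome 13 that lay 635 kb apart on opposite strands and held 120 bases without any difference.
Copy 1, chr13:66092074-66092193, plus strand: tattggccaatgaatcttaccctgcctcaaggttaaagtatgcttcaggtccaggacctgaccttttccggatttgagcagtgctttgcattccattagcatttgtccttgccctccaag
Copy 2, chr13:66726622-66726741, minus strand: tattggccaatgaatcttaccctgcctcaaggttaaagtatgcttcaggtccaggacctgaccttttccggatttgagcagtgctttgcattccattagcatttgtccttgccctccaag
The pair with the most PETs among those found in control cells alone joined anchors with less similar sequences, shown over 80 bases with the 4 differing positions in capitals.
Anchor near Fcho1, chr8:74269396-74269475, plus strand: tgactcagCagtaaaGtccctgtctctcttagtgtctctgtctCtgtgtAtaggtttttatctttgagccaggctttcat
Anchor in an intron of Myo9b, chr8:73808486-73808565, plus strand: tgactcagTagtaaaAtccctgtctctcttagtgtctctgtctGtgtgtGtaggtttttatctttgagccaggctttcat

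Non-promoter contacts were fewer in Ronin KO cells. They numbered 461 pairs in Ronin KO cells and 1147 in control cells, or 40.2% of control (36 to 44.8), and their PETs were 53.9% of control (52.0 to 55.8), where all intrachromosomal PETs were 49.2% (48.2 to 50.3). Promoter-promoter pairs numbered 2858 in Ronin KO cells and 6584 in control cells, or 43.4% (41.5 to 45.4), and pairs of a promoter with a non-promoter anchor 1718 and 4599, or 37.4% (35.3 to 39.5). Non-promoter pairs were 9.15% of intrachromosomal pairs in Ronin KO cells and 9.30% in control cells, but they held 39.9% of intrachromosomal PETs in Ronin KO cells and 36.4% in control cells. Over all distances, the ratio of Ronin KO to control pairs did not differ detectably from that of promoter-promoter pairs (odds ratio 0.93, 0.82 to 1.04, Fisher's exact test, two-sided, p = 0.597 adjusted by Benjamini-Hochberg over 18 tests) or from that of promoter to non-promoter pairs (1.08, 0.95 to 1.21, adjusted p = 0.597). Without pairs whose anchors had 100 identical bases or more in a row in common, the odds ratio to promoter-promoter pairs was 0.81 (0.71 to 0.92, adjusted p = 0.0196 by Fisher's exact test), with 354 pairs in Ronin KO cells and 1025 in control cells. With PETs in place of pairs, and pairs with such a stretch included, the odds ratio to promoter-promoter pairs was 1.1 (1.04 to 1.15). That interval counts each PET as independent. Without pairs with such a stretch, PETs were 29.1% of control for non-promoter pairs and 44.1% for promoter-promoter pairs. By chromosome, pairs without such a stretch ranged from 11.8% of control on chromosome 16, with 2 pairs in Ronin KO cells and 17 in control cells, to 58.8% on chromosome 19, with 10 and 17. Among pairs whose nearer anchor lay 2.5 to 3.5 kb from a start site, just inside the rule, there were 31 in Ronin KO cells and 100 in control cells. Just outside it, at 1.5 to 2.5 kb, there were 36 and 86.

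**Figure D1:**
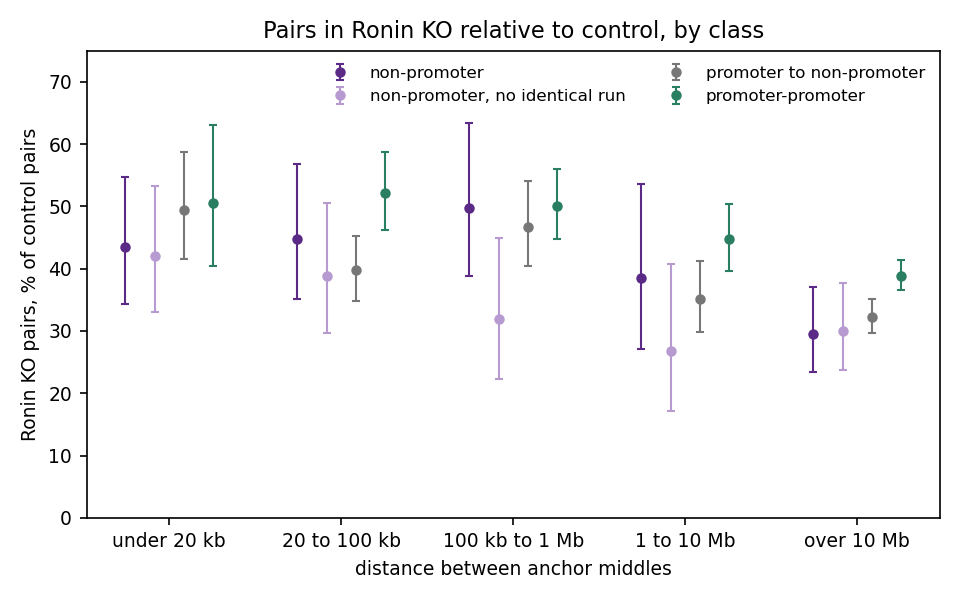
Pairs of peaks in Ronin KO cells as a percentage of pairs in control cells (y axis), by the distance between anchor middles (x axis) and class, with exact 95% intervals as bars. Non-promoter pairs without an identical stretch lie at 42.1% of control under 20 kb and at 30% over 10 Mb, and below promoter-promoter pairs in each of the 5 bins, with intervals that overlap in all of them.

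Non-promoter contacts were shorter than the others. In Ronin KO cells 67.5% of them (63.0 to 71.7) spanned less than 1 Mb, and in control cells 59.2% (56.3 to 62.1). The shares of promoter-promoter pairs were 36.1% in Ronin KO cells and 30.8% in control cells, and Fisher's exact test gave odds ratios of 3.66 in Ronin KO cells (adjusted p = 7.92e-36 over 23 tests) and 3.26 in control cells (adjusted p = 1.72e-72). Without identical stretches the odds ratios were 3.20 in Ronin KO cells and 3.09 in control cells. The median distance was 131 kb in Ronin KO cells (95.8 to 230.2) and 233 kb in control cells (164 to 328), intervals that overlap. It was 9.93 Mb in Ronin KO cells and 15.1 Mb in control cells for promoter-promoter pairs. Among pairs with at least 2 PETs the order of the libraries was the other way round, at 283 kb in Ronin KO cells and 226 kb in control cells.

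Most non-promoter pairs rested on 1 PET, and few pairs held most PETs. Pairs with 1 PET numbered 366 of 461 in Ronin KO cells and 989 of 1147 in control cells. At the other end, 12 pairs in Ronin KO cells and 22 in control cells had 100 PETs or more, and together these held 2793 and 5881 PETs. The 10 pairs with the most PETs held 53.5% of the PETs in Ronin KO cells and 46.7% in control cells. At least 2 PETs were found for 20.6% of pairs in Ronin KO cells (17 to 24.6) and 13.8% in control cells (11.8 to 15.9), and the shares of promoter-promoter pairs were 5.81% and 5.07%. All 461 pairs in Ronin KO cells and 1142 of 1147 in control cells had an adjusted p-value of the authors under 0.05, single PETs included.

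Sequence identity between the anchors went with the number of PETs. An identical stretch of 100 bp or longer, read on both strands, was shared by the anchors of 107 of 461 non-promoter pairs in Ronin KO cells (23.2%, 19.4 to 27.3) and 122 of 1147 in control cells (10.6%, 8.91 to 12.6). The shares of promoter-promoter pairs were 3.95% in Ronin KO cells and 2.46% in control cells (odds ratios 7.34 and 4.72, adjusted p = 1.04e-37 and 4.24e-31 by Fisher's exact test). These few pairs held 4403 of 4839 non-promoter PETs in Ronin KO cells (91.0%) and 7483 of 8981 in control cells (83.3%). Pairs with such a stretch were 87.7% of control in number (67.0 to 114.6), an interval that includes equal numbers, and pairs without it were 34.5% (30.5 to 39.0), a difference with an odds ratio of 2.54 (adjusted p = 6.26e-10 by Fisher's exact test). The same odds ratio was 1.63 in promoter-promoter pairs (adjusted p = 0.000137 by Fisher's exact test) and 2.07 in pairs of a promoter with a non-promoter anchor (adjusted p = 0.000184), and whether these odds ratios differ was not tested. PETs of non-promoter pairs without a stretch were 436 in Ronin KO cells and 1498 in control cells, or 29.1% (26.1 to 32.4), against 58.8% (56.7 to 61.1) for PETs of pairs with a stretch. By the study's methods, reads that fit several places equally well were discarded, so a read wholly inside an identical stretch is not counted, and the counts of these pairs come from reads placed where the copies differ. How often a read was placed on the wrong copy was not tested.

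When anchors that aligned over at least 300 bp at 85% identity or more were added, a limit chosen after values were seen, 127 pairs in Ronin KO cells and 175 in control cells had matching anchors. They included 52 of 52 pairs with 10 or more PETs in Ronin KO cells and 75 of 77 in control cells, against 41 of 366 and 49 of 989 pairs with 1 PET. The best alignments of matching pairs with 10 or more PETs had a median length of 1034 bp at 96.1% identity in Ronin KO cells and 1131 bp at 94.8% in control cells. The copies lay in the same orientation in 31 pairs and inverted in 21 in Ronin KO cells, and in 42 and 33 in control cells. The 334 pairs in Ronin KO cells and 972 in control cells without such a match had 346 and 1050 PETs, or 33.0% of control (29.1 to 37.2). They had at most 4 PETs a pair in Ronin KO cells and 14 in control cells.

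**Figure D2:**
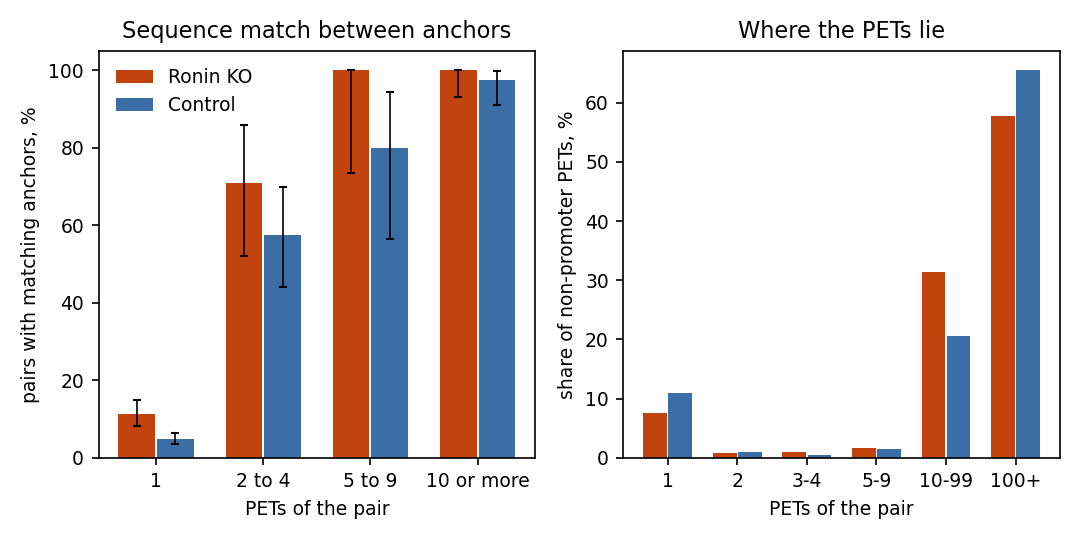
Left, share of non-promoter pairs whose anchors share an identical stretch or align (y axis, percent, with exact 95% intervals) by the number of PETs of the pair (x axis). Right, share of non-promoter PETs (y axis, percent) held by pairs of each size (x axis). The matching share lies at 11.2% in Ronin KO cells and 4.95% in control cells for single PETs, and at 100% and 97.4% for 10 PETs or more.

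When the anchors of pairs with 10 or more PETs were joined over gaps of up to 1 Mb, a rule chosen after values were seen, 15 of the regions so made had such a pair inside. The regions span 7.45 Mb and held 4434 PETs in Ronin KO cells and 7737 in control cells, that is 91.6% and 86.1% of the non-promoter PETs. Inside them Ronin KO PETs were 57.3% of control (55.2 to 59.5), and outside 32.6% (29 to 36.4), with 405 PETs in Ronin KO cells and 1244 in control cells. The largest, chr8:19698332-20021035, held 2643 PETs in Ronin KO cells and 4332 in control cells (61.0%, 58.1 to 64.1), which is 54.6% and 48.2% of all non-promoter PETs. It contains the genes 4930467E23Rik and Gm15319 and the long non-coding transcript 2610005L07Rik, and no promoter-promoter or promoter to non-promoter PET lay inside it in either library. The region chr4:145016896-147159238, a cluster of zinc-finger genes that includes Zfp600, Zfp534 and Rex2, held 517 PETs in Ronin KO cells and 936 in control cells (55.2%, 49.5 to 61.6). Pairs with a promoter anchor in that cluster had 218 PETs in Ronin KO cells and 398 in control cells (54.8%, 46.2 to 64.8). The region chr13:65453103-66910031, with Zfp640 and several Vmn2r pseudogenes, held 410 PETs in Ronin KO cells and 568 in control cells (72.2%, 63.4 to 82.1). Its pairs with a promoter anchor had 74 PETs in Ronin KO cells and 5 in control cells. Around 4930522L14Rik on chromosome 5 there were 304 PETs in Ronin KO cells and 632 in control cells (48.1%, 41.8 to 55.2).

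**Figure D3:**
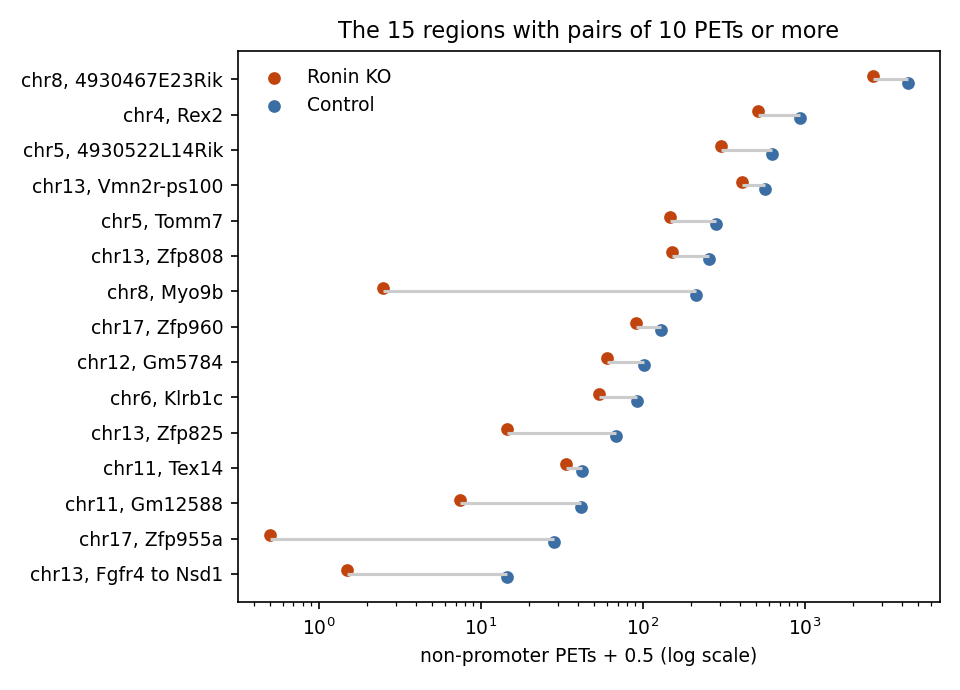
Non-promoter PETs plus 0.5 (x axis, log scale) in Ronin KO and control cells in each of the 15 regions (y axis, named by chromosome and a gene inside or beside them). Ronin KO lies left of control in all 15 regions, with the widest gap in the region of Myo9b, at 2 PETs in Ronin KO cells and 214 in control cells.

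The 10 pairs with the most PETs were found in both libraries and all had fewer PETs in Ronin KO cells, at 50.5% to 72.2% of control. All 10 lay above the 49.2% of all intrachromosomal PETs, so scaled to equal intrachromosomal totals all 10 were higher in Ronin KO cells. Several of their intervals include 49.2%, as for the lowest pair, at 41.2% to 61.7%. That pair had 226 scaled PETs in Ronin KO cells and 220 in control cells. The direction of the 10 pairs also depends on the scaling. Scaled instead by all PETs over 5 kb, the median log2 ratio of all anchors merged across the libraries was -0.77 in place of -0.16. The pairs were not scaled that way, which would lower each of their ratios too. On chromosome 8, anchors chr8:19783525-19786151 and chr8:20019607-20021035, 235 kb apart, were joined by 579 PETs in Ronin KO cells and 912 in control cells (63.5%, 57.1 to 70.5). Anchor chr8:19892322-19893711, which lies between them, was joined to the distal one by 449 and 622 PETs (72.2%, 63.8 to 81.6) and to the proximal one by 370 and 620 (59.7%, 52.3 to 68.0). These are the anchors of the copies 2, 3 and 1 printed above, and they align over at least 1384 bp at 97.3% to 97.9% identity. The pair of the identical stretch on chromosome 13 had 296 PETs in Ronin KO cells and 542 in control cells (54.6%, 47.2 to 63.0). Near Tomm7, which encodes a subunit of the import channel of the mitochondrial outer membrane, anchors 146 kb apart were joined by 147 PETs in Ronin KO cells and 282 in control cells (52.1%, 42.4 to 63.9). Another 5 of the 10 pairs lay in the chromosome 8 region, with 116 to 206 PETs in Ronin KO cells and 193 to 295 in control cells.

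Of all control pairs, 9.33% (7.71 to 11.2), that is 107 of 1147, were found again in Ronin KO cells, with both anchors overlapping by at least 1 bp. The share was 71.4% (60 to 81.2) for pairs with 10 or more PETs, 2.63% (1.72 to 3.83) for pairs with 1 PET, 56.6% with an identical stretch and 3.71% without. None of 338 control pairs over 10 Mb was found again, which allows a share of up to 0.888%. Promoter-promoter pairs were found again at 4.68%, and at 3.71% without a stretch. Both anchors overlapped a linked peak of the other library in 391 of 461 Ronin KO pairs (84.8%) and in 566 of 1147 control pairs (49.3%), so for the rest of the control pairs at least 1 anchor had no PET-linked peak in Ronin KO cells. When anchors of both libraries were merged, 94 of 1462 pairs were common to both and held 4274 PETs in Ronin KO cells and 6958 in control cells (61.4%, 59.1 to 63.8). Of the 59 common pairs with 10 or more PETs in sum, 55 had fewer in Ronin KO cells, 3 had more and 1 had equal numbers, and the median was 63.4% of control. Scaled to equal intrachromosomal totals, 45 of the 59 were higher in Ronin KO cells and 14 lower. These counts too depend on the scaling. Scaling by PETs over 5 kb, which would lower each of these ratios, was not applied to the pairs.

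**Figure D4:**
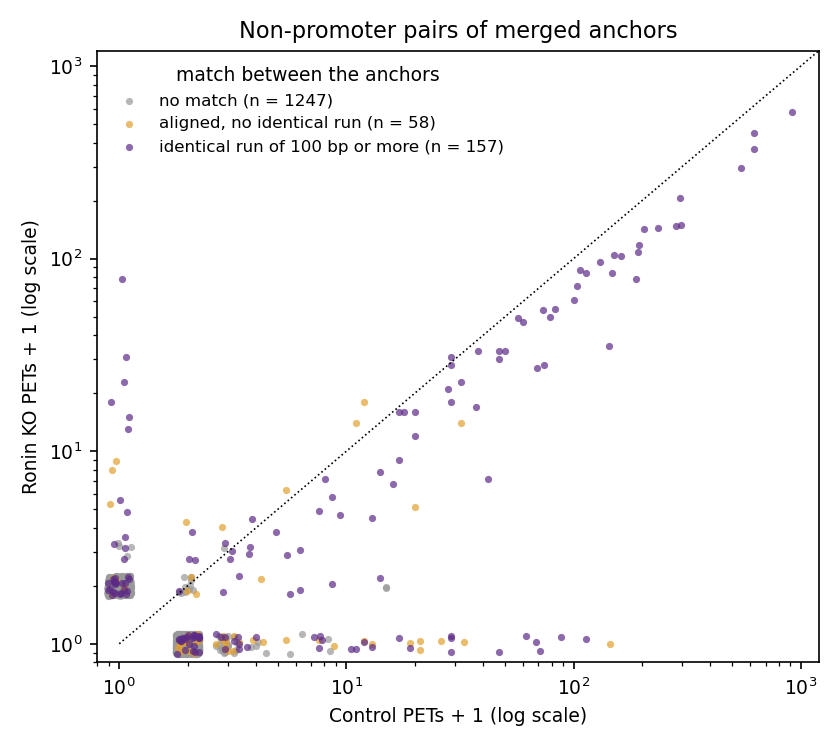
PETs plus 1 of each of 1462 merged non-promoter pairs in Ronin KO cells (y axis, log scale) and control cells (x axis, log scale), with counts under 10 spread slightly at random so that equal counts can be seen, with equal counts on the dotted line. Pairs with a shared identical stretch run along and below the line up to 579 PETs in Ronin KO cells and 912 in control cells, and pairs without a match stay at low counts, with at most 2 and 14.

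Several pairs were listed in 1 library alone. An anchor in an intron of Myo9b, which encodes an unconventional myosin, and an intergenic anchor 19.3 kb from Fcho1, a gene of clathrin-mediated endocytosis, lay 461 kb apart and were joined by 0 PETs in Ronin KO cells and 144 in control cells (an upper limit of 2.59% of control). They are the last pair printed above, align over 493 bp at 90.3% identity and share no identical run longer than 62 bp, and the Myo9b peak was not linked to any other in Ronin KO cells. Near 4930522L14Rik a pair had 0 PETs in Ronin KO cells and 112 in control cells, and between introns of Gm13242 and of the zinc-finger gene Zfp600 a pair had 0 and 87. In both, at least 1 anchor had no linked peak in Ronin KO cells. The converse was seen on chromosome 13, where anchors chr13:66515584-66516349 and chr13:66811698-66813298 were joined by 77 PETs in Ronin KO cells and 0 in control cells. On chromosome 4, chr4:145056866-145058579 and chr4:146652555-146653703 were joined by 30 PETs in Ronin KO cells and 0 in control cells, and neither anchor had a linked peak in control cells. Each of these 4 pairs shares an identical stretch of 110 to 151 bp.

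Among pairs without an identical stretch, measured on the anchors of each library, the 10 with the most PETs aligned over 337 to 4564 bp at 88.1% to 95% identity. The ranking counted all PETs between the merged anchors, those of pairs with a promoter anchor included. The pair that aligned over 4564 bp so had 50 PETs in Ronin KO cells and 74 in control cells, of which 0 and 2 were non-promoter. Its merged anchors share an identical run of 156 bp. Of the 10 pairs, that one included, 6 lay in the zinc-finger gene cluster of chromosome 4 or near Zfp825 on chromosome 13. No PET was found in Ronin KO cells for 5 of the 10. Among those 5 was a pair near Klrb1c, which encodes a receptor of natural killer cells, with 20 PETs in control cells. A pair on chromosome 12, of anchors 1231 kb apart near Gm10330, had 17 PETs in Ronin KO cells and 11 in control cells (an interval of 68.3% to 365% of control, which includes equal numbers). Pairs with neither an identical stretch nor an alignment had few PETs. The most joined peaks 11.1 kb apart between Fgfr4, a receptor of fibroblast growth factors, and Nsd1, a histone H3 lysine methyltransferase, at chr13:55279022-55285923 and chr13:55290409-55296718 with 1 PET in Ronin KO cells and 14 in control cells. A pair in the zinc-finger gene cluster of chromosome 4, between Gm13152 and Gm13154, also had 1 PET in Ronin KO cells and 14 in control cells. At Msl2, which encodes a ubiquitin ligase of the MSL histone acetyltransferase complex, peaks 17.3 kb apart had 0 PETs in Ronin KO cells and 5 in control cells. The second of these peaks runs past the end of Msl2 and also overlaps Ppp2r3a. Within Bcat1, the cytosolic branched-chain aminotransferase, peaks 10.5 kb apart had 0 in Ronin KO cells and 3 in control cells. In Ronin KO cells the highest were 4 PETs near 4930522L14Rik and 3 between the peaks of Malat1 and Neat1. These named pairs did align, but below that limit. The peaks between Fgfr4 and Nsd1 aligned over 161 bp at 94.4% identity, and those within Bcat1 over 190 bp at 95.8%.

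By place, the share of control differed between gene bodies and intergenic sequence. An anchor counted as in a gene body if it overlapped one by at least 1 bp, so it can extend beyond the gene. Both anchors lay in protein-coding gene bodies in 155 pairs in Ronin KO cells and 432 in control cells (35.9%, 29.7 to 43.2), 1 of them in 123 and 379 (32.5%, 26.3 to 39.9), and both were intergenic in 183 and 336 (54.5%, 45.2 to 65.4). The odds ratio of gene-body to intergenic pairs was 0.66 (0.51 to 0.85, adjusted p = 0.0289 by Fisher's exact test). It was 0.75 (0.56 to 1.01) without pairs that share an identical stretch, where the adjusted p was 0.170. The call was also lost with start sites of every biotype (odds ratio 0.74, 0.54 to 1.01, adjusted p = 0.242 by Fisher's exact test). With at least 2 PETs, which left 95 non-promoter pairs in Ronin KO cells and 158 in control cells, the odds ratio was 0.52 (0.23 to 1.17, adjusted p = 0.572 by Fisher's exact test). Intergenic pairs held 4293 of the non-promoter PETs in Ronin KO cells and 7441 in control cells, and 39.9% and 26.2% of them shared a stretch. Of gene-body pairs 10.3% in Ronin KO cells and 3.70% in control cells did so. Gene-body pairs were short, with a median of 34.6 kb in Ronin KO cells and 51.6 kb in control cells.

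Many gene-body contacts had both anchors on the same gene. Both anchors overlapped the same gene in 88 pairs in Ronin KO cells and 227 in control cells (38.8%, 30 to 49.8), at a median of 13.7 kb in each library. The ratio of these pairs did not differ detectably from that of pairs between different genes, with 67 in Ronin KO cells and 205 in control cells (odds ratio 1.19, 0.82 to 1.72, Fisher's exact test, p = 0.398). They involved 76 genes in Ronin KO cells and 185 in control cells, of which 29 were the same, or 38.2% of the Ronin KO and 15.7% of the control genes. The matching share over genes of all other contacts was not counted, so this overlap cannot be placed. Of the same-gene pairs 83 in Ronin KO cells and 215 in control cells had 1 PET. Only Tex14 (ENSMUSG00000010342.9, chr11:87218567-87369325, plus strand), needed for the bridges that join germ cells, had more than 5 PETs in any 1 pair. Its peaks 30.1 kb apart were joined by 22 PETs in Ronin KO cells and 31 in control cells, and share an identical stretch. All non-promoter pairs in the Tex14 region had 33 PETs in Ronin KO cells and 42 in control cells (78.6%, 48.3 to 127.0), an interval that includes equal numbers. Slc4a4, a sodium bicarbonate cotransporter, had a pair with 3 PETs in each library, also with a shared stretch.

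The contacts used 760 different anchors in Ronin KO cells and 1832 in control cells. They were narrower than promoter anchors, with a median width of 4.36 kb in Ronin KO cells and 4.43 kb in control cells, where promoter anchors had 13.2 and 10 kb. Gene bodies held 50.8% of the anchors in Ronin KO cells and 56.7% in control cells, with 165 and 446 wholly in introns, 221 and 593 touching an exon, and 83 and 217 over the 3′ end of a gene. The start of a gene of another biotype, such as a pseudogene, lincRNA or miRNA, lay inside or within 2.5 kb of 17% of anchors in Ronin KO cells and 12.8% in control cells. The median distance to the nearest protein-coding start was 19.7 kb in Ronin KO cells and 19.1 kb in control cells. Anchors had 10.4 CpG dinucleotides per kb in Ronin KO cells and 10.1 in control cells at the median, and promoter anchors 16.3 and 16.8.

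After merging, 171 of 2149 non-promoter anchors with such a contact had at least 10 intrachromosomal PETs. Scaled to equal intrachromosomal totals, with 1 added to each scaled count, 18 of them (10.5%) were at least 2-fold higher in Ronin KO cells and 53 (31%) at least 2-fold lower. Over all 814 merged anchors with as many PETs, the shares were 7.62% higher and 20.1% lower. The median log2 ratio was 0.02 for the non-promoter anchors and -0.16 for all anchors. Of the anchors higher in Ronin KO cells, 9 had 0 PETs in control cells, 7 had no linked peak there, and 13 lay in the 15 regions. Of the lower ones, 30 had 0 PETs and 26 no linked peak in Ronin KO cells, and 40 lay in the regions. Without pairs that share an identical stretch, 8 of 74 anchors (10.8%) were higher and 29 (39.2%) lower, where 12.1% of all 646 anchors were higher and 16.7% lower, so the share of higher ones was then below that over all anchors. It was also below with at least 2 PETs, at 11.5% against 14.6% over all anchors. With start sites of every biotype 9 of 106 (8.49%) were higher, and with a minimum of 20 PETs 33 of 122 (27%) were lower, against 18.3% over all anchors. Scaled instead by all PETs over 5 kb of each library, the medians were -0.67 for the non-promoter anchors and -0.77 for all anchors, with 11 higher (6.43%) and 66 lower (38.6%), where the shares over all anchors were 3.19% higher and 39.7% lower. Of the non-promoter anchors past the limit 14.3% were then higher, in place of 25.4%, and the share of lower ones was no longer above that over all anchors. Both anchors of 1 pair can be counted, so the anchors past the limit are not independent. This was so for the chromosome 13 pair with 77 PETs in Ronin KO cells and 0 in control cells. With 1 library per condition the counts of anchors have no test.

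Most merged anchors, 1828 of 2242, had 1 non-promoter partner, and 31 had at least 5. The most connected were chr4:146032799-146037347 in the zinc-finger gene cluster, with 8 partners in Ronin KO cells and 9 in control cells (184 and 254 PETs), and chr5:110249340-110276565 near 4930522L14Rik, with 7 and 8 partners (301 and 602 PETs). Of 10 such anchors, 2 had no partner with a shared stretch. The first of these covers the Mir290 to Mir295 cluster on chromosome 7 (chr7:3198356-3229127), an ESC-specific miRNA cluster that promotes the cell cycle and self-renewal, and overlaps the gene Nlrp12. It had 3 partners in Ronin KO cells and 7 in control cells, each with 1 PET, at a median distance of 48.6 Mb. The other, 233.6 kb from Enc1 on chromosome 13, had 1 partner in Ronin KO cells and 8 in control cells. The Mir290 to Mir295 anchor covers the genes of 3 mature miRNAs that share the same seed (bases 2 to 8, in capitals), the seed known for its part in the ESC cell cycle, and they are shown as given by RefSeq (GRCm38.p6).
mmu-miR-291a-3p: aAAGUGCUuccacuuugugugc
mmu-miR-294-3p: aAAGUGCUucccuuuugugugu
mmu-miR-295-3p: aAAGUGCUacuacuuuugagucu

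Contacts near pluripotency genes were single PETs. Of 37 listed genes in the annotation, 7 had a non-promoter contact with an anchor within 50 kb of their start in Ronin KO cells and 10 in control cells, and 3, Klf2, Sall1 and Zfp42, had one in both. In control cells Dppa3, Gdf3 and Nanog were counted from the same pair. The share over all annotated genes was not counted. There were 11 pairs in Ronin KO cells and 17 in control cells (64.7%, 27.4 to 146.4), an interval that includes equal numbers, and none had more than 1 PET. Near Sall1, a transcription factor of ESCs, there were 2 pairs in Ronin KO cells and 4 in control cells, the shortest 61.2 kb and 17.4 kb long. Zfp42, also known as Rex1, a marker of naive ESCs, had 3 in Ronin KO cells and 6 in control cells. Klf2, a Krüppel-like factor of naive ESCs, had 2 in each. Named after their values were seen, Pou5f1, Sox2 and Klf4 each had a pair in Ronin KO cells and none in control cells, and Nanog had a pair in control cells and none in Ronin KO cells. A single PET is the least that a pair can have.

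Starts of listed non-coding genes had contacts in 8 of 25 genes in Ronin KO cells and 12 in control cells, with 9 and 20 pairs. Mir290, Mir291a, Mir292, Mir294 and Mir295 count as separate genes here but lie at 1 anchor and rest on the same pairs. The share over all annotated genes was not counted. Malat1, a nuclear RNA at splicing speckles, and Neat1, the scaffold of paraspeckles, are neighbours on chromosome 19. In Ronin KO cells their peaks, chr19:5789948-5821261 and chr19:5821263-5854161, were joined by 3 PETs. In control cells 1 peak, chr19:5789928-5854170, covered both, so no pair between them could be listed. The same held for 33 of 461 Ronin KO pairs with 37 PETs, which 1 control peak covered, and for 18 of 1147 control pairs with 21 PETs, which 1 Ronin KO peak covered. Snhg5, a host gene of small nucleolar RNAs, had a pair with 3 PETs over 77.5 kb in control cells alone, and its anchors share an identical stretch.

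Contacts with other chromosomes were counted at the same places in both libraries, the 2149 merged non-promoter anchors, a comparison chosen after values were seen. Peaks overlapping them, which cover 14.1 Mb, had 5855 interchromosomal PETs in Ronin KO cells and 17924 in control cells, or 32.7% of control (31.7 to 33.6), and all interchromosomal PETs were 40.4% (40.0 to 40.8). At the 1404 places with a linked peak in both libraries the value was 34.6% (33.6 to 35.6). Counted at the anchors of each library, which were called separately and are not the same places, there were 2937 interchromosomal PETs at 760 anchors over 5.05 Mb in Ronin KO cells and 16335 at 1832 anchors over 12.3 Mb in control cells, or 18% (17.3 to 18.7). The mean per anchor was 3.86 in Ronin KO cells and 8.92 in control cells, and the median per anchor was 1 interchromosomal PET in Ronin KO cells and 3 in control cells, with 238 and 302 anchors at 0. The Malat1 and Neat1 peaks had 127 and 85 in Ronin KO cells, and the 1 peak of control cells 638. With the promoter limit at 1 kb the value at separately called anchors was 36.4%, since a pair on chromosome 9 in Ronin KO cells then counts, whose anchors had 1981 and 1435 interchromosomal PETs. With the 5′ end of each gene as its start the value was 34%, and at anchors of pairs with at least 2 PETs 29.9%.

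The anchors were searched on both strands for the Ronin-binding motif and for 3 shorter motifs, none of which holds another. The exact Ronin-binding motif lay in 0 of 760 whole anchors in Ronin KO cells, which allows a share of up to 0.395%, and in 9 of 1832 in control cells (0.491%, 0.225 to 0.931). Whole promoter anchors, which are wider, held it in 2.78% in Ronin KO cells and 2.67% in control cells. Of windows of 1000 bp, 0 of 760 centred on Ronin KO anchors and 0.109% of those centred on control anchors held it, 1.20% of those around the 5′ ends of protein-coding genes and 0.0411% of those placed every 50 kb of the genome. Of the 9 sites in control anchors, 3 are shown on the plus strand with 15 bases on each side, the motif in capitals, since this is the sequence that Ronin is known to bind. The coordinates are those of the printed bases. The place and the distance to a start are those of the whole anchor, measured from its edge.
Intergenic, 3.03 kb from Smug1, chr15:102993745-102993789: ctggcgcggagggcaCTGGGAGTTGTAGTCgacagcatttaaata
Gene body of Trnau1ap, chr4:131864481-131864525: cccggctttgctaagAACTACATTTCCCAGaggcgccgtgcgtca
Intergenic, 230.4 kb from Pcmtd1, chr1:7387724-7387768: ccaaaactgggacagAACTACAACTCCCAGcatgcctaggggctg
Each of these anchors had 1 or 2 PETs in non-promoter pairs in control cells. Over all intrachromosomal pairs, the merged anchor at Trnau1ap had 1 PET in Ronin KO cells and 14 in control cells. The octamer ATTTGCAT, bound by Oct4 and related factors, lay in 5.53% of the windows in Ronin KO cells and 6.77% in control cells, and in 8.68% of genome windows. The Esrrb motif TCAAGGTCA, bound by an orphan nuclear receptor of naive ESCs, lay in 4.21% in Ronin KO cells and 3.22% in control cells, and in 2.16% of genome windows. The letters AGGGGGCGC of the CTCF core lay in 0.789% in Ronin KO cells and 0.491% in control cells, in 0.198% of genome windows and in 3.32% of windows at gene 5′ ends. These matches describe the windows only and were not tested.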

How the data were processed

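The data were RNA Pol II ChIA-PET contacts in 1 merged library each of Ronin KO and control mouse ESCs. By the study's methods and the submitters' processing notes, the authors removed the bridge linker (cutadapt), aligned each mate on its own to mm9 (Bowtie 1.1.1), keeping unique hits, called peaks with MACS 1.4.2, collapsed duplicates and removed PETs under 4 kb. The deposited values used were raw counts of PETs for each peak pair and a p-value with its adjusted value per pair (hypergeometric test). The deposited distance, a signed score, was checked against the peak positions. Normalization between the libraries was not applied except in the fold rule and where pairs were scaled to equal intrachromosomal totals or ranked by scaled difference.

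Start sites and sequences came from GENCODE vM1 and NCBIM37 (mm9). Ratios of counts have exact conditional binomial intervals and shares exact Clopper-Pearson intervals. Classes were compared by Fisher's exact test with Benjamini-Hochberg adjustment over 18 tests (3 comparisons over all distances and 5 distance bins) and 23 further tests. The fold rule on merged anchors needed 10 PETs and a scaled 2-fold difference, with a pseudocount of 1. Anchors were aligned with blastn 2.17.0 (e-value 1e-10). Scripts were tested on simulated data and used Python 3.11.15, numpy 2.4.6, pandas 2.3.3, scipy 1.17.1, pysam 0.24.0, samtools 1.23.1 and matplotlib 3.10.9.

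Pairs and anchors were named by rules: the 10 with the most PETs, with and without a shared stretch, the 10 largest scaled differences in each direction, contacts within 1 gene with at least 3 PETs, the 10 anchors with the most partners, and contacts at listed pluripotency and non-coding genes. Pairs without a match, regions and motif sites were chosen after their values were seen. The members and lists were chosen with earlier results of these data known. Repeats of the genome were not annotated here. PETs are amplified read pairs with duplicates collapsed, so precision is that of counting, and the total of intrachromosomal PETs was 12140 in Ronin KO cells and 24663 in control cells. Interchromosomal PETs numbered 53136 and 131434. The alternatives were other promoter limits and start sites, minimum PETs, leaving out pairs with shared sequence, PETs in place of pairs, wider anchors and other scalings.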

Additional observations from a re-analysis of the deposited data

How the results depend on the processing

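Of 89 alternatives run, 50 gave the same direction and call, a value within counting error or, for merged anchors past the limit, a count near the main one. Of the others, 29 gave a value outside that range and 5 reversed the direction. A further 3 lost the call and 2 gained one. No paired analysis was possible because each condition has 1 merged library, which leaves no replicate to drop.

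With start sites of every biotype, pairs were 35.7% of control, PETs 47.2%, the odds ratio to promoter to non-promoter pairs 0.95, that of gene-body to intergenic pairs 0.74, pairs found again 6.81%, merged anchors higher in Ronin KO cells 9, and interchromosomal PETs at the anchors 15%. Those interchromosomal PETs were 36.4% with start sites within 1 kb, and 34% with the 5′ end of each gene, where 7.56% of pairs were found again. PETs were 56.9% of control with a limit of 5 kb. Requiring at least 2 PETs gave 60.1% for pairs, 56.0% for PETs, odds ratios of 1.21 to promoter-promoter pairs and 0.52 for gene bodies, 44.9% found again, a difference of median distance of 0.10 on the log10 scale in place of -0.25, and 29.9% for interchromosomal PETs. Without identical stretches the values were 34.5% for pairs, 29.1% for PETs, odds ratios of 0.81, 0.94 and 0.75 (to promoter-promoter, to promoter to non-promoter, and gene bodies), 3.22% found again when such Ronin KO pairs were left out too, 8 anchors higher and 29 lower, and 16.5% for interchromosomal PETs. PETs in place of pairs gave odds ratios of 1.1 to promoter-promoter pairs (adjusted p = 0.000795, Fisher's exact test) and 1.24 to promoter to non-promoter pairs (adjusted p = 7.62e-14). These tests count each PET as independent and so overstate the certainty. The 10 largest pairs held 53.5% of non-promoter PETs in Ronin KO cells and 46.7% in control cells. Anchors extended by 5 kb gave 14.9% found again. Scaling by PETs over 5 kb gave 11 anchors higher, and a minimum of 20 PETs gave 33 lower. Chosen after seeing the data, leaving out pairs that align or share a stretch gave 34.4% for pairs, 33.0% for PETs and 2.37% found again, and leaving out the 15 regions 35.6% and 32.6%. Also chosen then, interchromosomal PETs at the same merged places of both libraries were 32.7%, and 34.6% at those with a linked peak in both, in place of 18%. The cause of each change was not tested, except where fewer pairs or anchors enter by construction. Most pairs rest on 1 PET, which limits what can be seen of single contacts.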
